A study of Mus musculus with 6 samples.

Results

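The 31 genes described here encode proteins of fatty acid uptake, activation and oxidation, together with the PPAR receptors. Their RNA was followed through cells sorted from mouse mammary tumours. They were chosen by symbol, from knowledge of the pathway, with earlier results of these data known. All 31 were among the 30406 genes that the 6 deposited count tables share. Each was matched by its Ensembl identifier, for example Cd36 (ENSMUSG00000002944), Acsl1 (ENSMUSG00000018796) and Slc25a20 (ENSMUSG00000032602).

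Live cells carrying CD45, the surface protein of leukocytes, were sorted from tumours that female mice grew after injection of Py8119, a mouse mammary tumour cell line, and were read with droplet 3' libraries that count RNA molecules (UMIs). The question was how the genotype of Mtdh in the marrow and in the rest of the host bears on tumour immune cells. Each of the 6 groups was 1 library, loaded with about 15000 cells and taken 4 weeks after injection. Nothing in the labels says how many mice gave a library, so no spread within a group could be measured, and every p-value below rests on how the libraries differ from one another.

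The first of the 6 groups was an Mtdh knockout (KO) mouse with its own marrow, called intact KO, and the second a wild-type (WT) mouse with its own marrow, called intact WT. The other 4 groups were irradiated and given donor marrow 8 weeks before tumour injection. They are named by donor and host: the KO-to-KO chimera had KO marrow in KO host, the KO-to-WT chimera KO marrow in WT host, the WT-to-KO chimera WT marrow in KO host and the WT-to-WT chimera WT marrow in WT host. Intact KO and the KO-to-KO chimera are the 2 fully KO libraries, with host and marrow both KO. Intact mice were neither irradiated nor transplanted, so they differ from the chimeras in more than genotype, and irradiated hosts can keep immune cells of their own. Which part of Mtdh was deleted, and in which cell types, is not stated by the labels.

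Long-chain fatty acids enter cells with the help of the scavenger receptor CD36, are bound by chaperones such as FABP4, and are trapped as acyl-CoA by the long-chain acyl-CoA synthetases (ACSL). For oxidation the acyl group is passed to carnitine by CPT1, carried across the inner mitochondrial membrane by the carrier SLC25A20 and returned to CoA by CPT2. Each turn of the β-oxidation spiral then runs through an acyl-CoA dehydrogenase, a hydratase, a hydroxyacyl-CoA dehydrogenase and a thiolase, and the electrons leave through the electron transfer flavoprotein. Peroxisomes hold a parallel path, and the nuclear receptors PPARα, PPARδ and PPARγ switch on many genes of the pathway when they bind fatty acids. In macrophages the pathway is known for its link to lipid uptake and tissue-repair states, and in CD8 T cells for its link to memory and persistence.

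The libraries held between 85616443 and 142779550 UMIs. Of 41267 barcodes, 37988 cells were kept and 32612 of those (85.8%) fell into 13 classes gated on marker genes, none of which is among the 31. Any pair of libraries shared between 8 and 25 cell barcodes. Macrophages, gated on the complement genes C1qa, C1qb and C1qc, were the largest class with 24742 cells and 3519 to 5230 per library. CD8 T cells numbered 1955 (71 to 1167 per library), monocytes 966 (58 to 399) and mesenchymal-like cells 1458 (107 to 401). These 4 classes had at least 50 cells in every library and were tested for genotype. The intact libraries were counted with another version of Cell Ranger (7.0.1) than the transplanted ones (6.1.1), so transplantation and software version cannot be told apart, and every genotype fit carried a term for them. Mtdh itself stood at 13.4 to 19.6 CPM in macrophages of the 3 libraries with KO marrow or an intact KO mouse and at 98.2 to 114 CPM in the other 3. In mesenchymal-like cells it stood at 362 to 435 CPM in all 6 libraries, whatever the label, and these cells held only 4.68 to 11.5 CPM of Ptprc, the gene of CD45. Genotype comparisons in that class are therefore between the mice that bore the tumours, not between cells shown to have lost Mtdh. Host genotype has no such check in these files.

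UMIs were summed per class and library, and levels within a class are given as CPM, counts scaled to the library's total, after TMM scaling, a correction for composition. In such sums, more cells that express a gene and more RNA per expressing cell cannot be told apart. In the macrophages 30 of the 31 genes passed the filter on low counts. Ppara, the receptor that drives oxidation in liver, was the exception with 0 to 5 UMIs per library. In CD8 T cells 22 genes passed, in monocytes 28 and in mesenchymal-like cells 27.

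**Figure D1:**
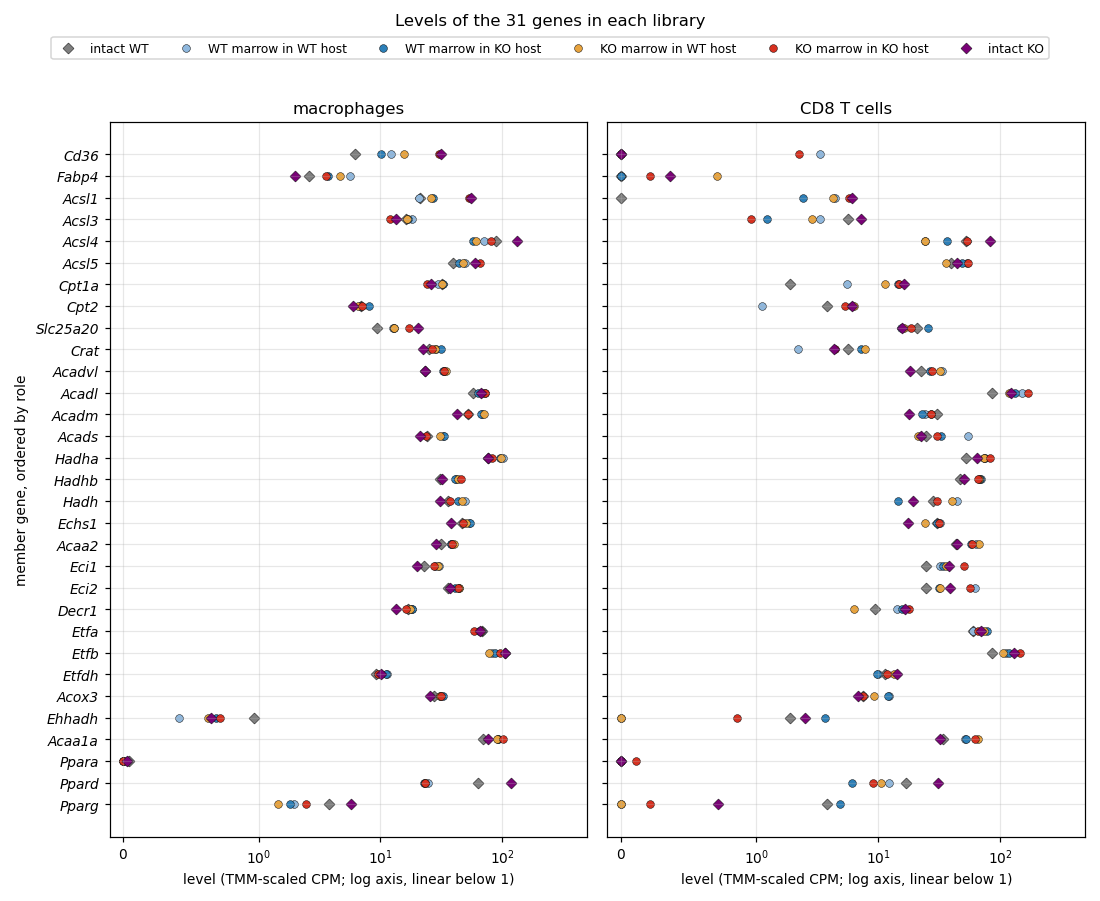
Level of each of the 31 genes (vertical axis, ordered by role) in macrophages and CD8 T cells, in TMM-scaled CPM on a log axis that is linear below 1; each point is 1 library, diamonds are intact mice and circles marrow chimeras. The 2 fully KO libraries lie above the other 4 for Cd36, Acsl1, Acsl5 and Slc25a20 in macrophages, a pattern that 11.8% of all genes showed. Ppard in macrophages separates intact mice (63.4 and 119 CPM) from chimeras (22.7 to 24.4 CPM).

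The clearest pattern was in macrophages of the 2 fully KO libraries. There the uptake receptor Cd36, the synthetases Acsl1, Acsl5 and Acsl4 and the carnitine carrier Slc25a20 were higher than in the other 4 libraries, by 0.45 to 1.71 on the log2 scale. The synthetase Acsl3, the medium-chain dehydrogenase Acadm and the carnitine transferase Cpt1a were lower by smaller amounts. The enzymes of the spiral beyond Acadm did not pass the test. Of the 30 members tested, 8 were called by edgeR's quasi-likelihood test with Benjamini-Hochberg adjustment over all 14805 genes, 5 higher and 3 lower. In the same comparison 17% of all genes were called, 9.2% higher and 7.78% lower. The members' median log2 change was -0.06 and that of all genes -0.01. Both fully KO libraries lay above the other 4 for 4 of 30 members, or 13.3%, beside 11.8% of all genes. They lay below for 5, or 16.7%, beside 13.9%, so lack of overlap alone was near the share of all genes. This grouping of 2 libraries against 4 was taken up after earlier results of these data had shown that the fully KO libraries stand apart, and its p-values take no account of this selection.

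Cd36, which imports long-chain fatty acids and oxidised lipoproteins, stood in macrophages at 31.4 CPM in intact KO, 30.5 in the KO-to-KO chimera, 15.7 in the KO-to-WT chimera, 10.2 in the WT-to-KO chimera, 12.1 in the WT-to-WT chimera and 6.17 in intact WT. The 2 fully KO libraries were the highest, the KO-to-WT chimera came next, and the groups did not overlap. The log2 difference was 1.71 (SE 0.29, adjusted p = 0.0167, edgeR). Its UMIs came from 723 of 3875 macrophages in intact KO and 608 of 4082 in the KO-to-KO chimera, against 211 to 248 cells in each of the other 4 libraries.

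Acsl1, the synthetase that feeds fatty acids both to oxidation and to storage, was at 56.0 CPM for intact KO, 53.4 in the KO-to-KO chimera, 25.9 in the KO-to-WT chimera, 27.2 in the WT-to-KO chimera, 20.8 in the WT-to-WT chimera and 21.1 in intact WT. The fully KO libraries again lay clear of the others, and both libraries with a single KO compartment lay slightly above the 2 WT libraries. The log2 difference was 1.23 (SE 0.13, adjusted p = 0.00437, edgeR).

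Acsl5, a synthetase of the mitochondrial outer membrane and endoplasmic reticulum, was at 60.3 CPM for intact KO, 65.5 in the KO-to-KO chimera, 47.5 in the KO-to-WT chimera, 44.0 in the WT-to-KO chimera, 49.4 in the WT-to-WT chimera and 39.4 in intact WT. The groups did not overlap, and the log2 difference was 0.53 (SE 0.08, adjusted p = 0.00981). Acsl4, which prefers arachidonic acid, was at 132 CPM for intact KO, 80.8 in the KO-to-KO chimera, 60.8 in the KO-to-WT chimera, 57.3 in the WT-to-KO chimera, 70.5 in the WT-to-WT chimera and 88.4 in intact WT. Its groups overlapped, since intact WT lay above the KO-to-KO chimera, and the call (log2 difference 0.45, SE 0.11, adjusted p = 0.0371) comes from a fit with a term for transplantation, within each level of which the fully KO library was the highest. Acsl3, which acts at lipid droplets and the endoplasmic reticulum, went the other way. It was at 13.3 CPM for intact KO and 11.99 in the KO-to-KO chimera, against 16.6 in the KO-to-WT chimera, 16.8 in the WT-to-KO chimera, 18.4 in the WT-to-WT chimera and 16.2 in intact WT (log2 difference -0.43, SE 0.10, adjusted p = 0.0329).

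The carnitine shuttle was split. Slc25a20, the carnitine-acylcarnitine carrier, was at 20.3 CPM for intact KO, 17.4 in the KO-to-KO chimera, 12.9 in the KO-to-WT chimera, 12.9 in the WT-to-KO chimera, 12.8 in the WT-to-WT chimera and 9.43 in intact WT (log2 difference 0.71, SE 0.15, adjusted p = 0.0282). Cpt1a, which commits the acyl group to mitochondrial import, stood at 25.8 and 24.4 CPM in the same 2 fully KO libraries, and at 32.1, 32.5, 29.6 and 31.9 CPM in the other 4 in that order (log2 difference -0.34, SE 0.08, adjusted p = 0.0312). The groups overlapped for neither gene. Cpt2, on the inner face of the membrane, ranged from 5.99 to 8.06 CPM over the 6 libraries with a log2 difference of -0.09, and Crat, which acts on short-chain acyl-carnitines, from 22.4 to 31.8 CPM with -0.16, and neither passed the test.

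Within the acyl-CoA dehydrogenases, Acadm was at 42.5 CPM for intact KO and 52.1 in the KO-to-KO chimera, against 70.5 in the KO-to-WT chimera, 67.6 in the WT-to-KO chimera, 67.7 in the WT-to-WT chimera and 52.4 in intact WT (log2 difference -0.36, SE 0.07, adjusted p = 0.0193). The groups did not overlap, but the KO-to-KO chimera and intact WT were nearly level. Acads, for short chains, lay just outside the threshold with 21.1 and 23.5 CPM against 23.9 to 33.1 CPM (log2 difference -0.34, adjusted p = 0.0503). Acadl and Acadvl, for long and very long chains, gave log2 differences of 0.13 and -0.00068. Among the remaining steps the differences that did not pass ran from -0.27 for Hadh, the hydroxyacyl-CoA dehydrogenase, to 0.14 for the peroxisomal thiolase Acaa1a.

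Leaving out single libraries changed the number of these calls. Without the KO-to-WT chimera, and likewise without the WT-to-KO chimera, 3 members were called (Cd36, Acsl1 and Acsl5) in place of 8. Without the WT-to-WT chimera 6 of the 8 were called, with Acsl3 and Slc25a20 lost. Without the KO-to-KO chimera Acadm, Acsl3 and Cpt1a lost their calls, and Ppard passed in addition. Without either intact library Acsl4 and Cpt1a lost theirs, and Acads passed in addition. The fits without the KO-to-KO chimera or an intact library rest on a single fully KO library. Without TMM scaling 10 were called, 4 higher and 6 lower, with Acads, Echs1 and Hadh added and Acsl4 lost, and the median of all genes moved from -0.01 to -0.11, so the balance of higher and lower members depends on the scaling. Over all genes the split was 1362 higher and 1152 lower with TMM, and 1048 higher and 1869 lower without it.

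**Figure D2:**
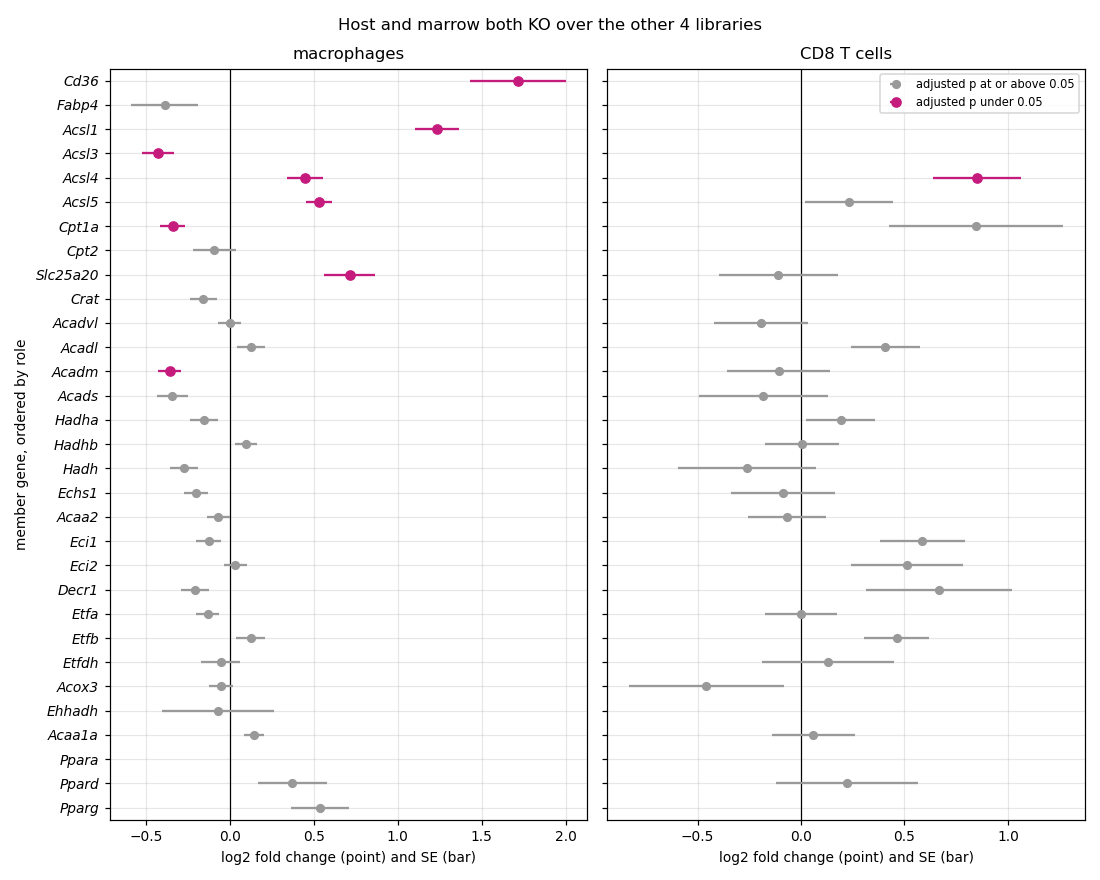
Log2 fold change of the 2 fully KO libraries over the other 4, with a term for transplantation, for each member in macrophages and CD8 T cells; points are edgeR estimates, bars are 1 SE, and coloured points have an adjusted p under 0.05. In the macrophage panel 5 coloured members lie to the right and 3 to the left of 0, and the CD8 panel Acsl4 alone past the threshold; genes below the filter have no point.

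Markers of other cells moved with these 2 libraries inside the macrophage gate. Of the 4 cDC1 genes, 3 were higher in both fully KO libraries than in the other 4. The sum of all 4 genes was 424 and 502 CPM against 276 to 337 CPM before TMM scaling. Most of that difference was Naaa, at 179 and 240 against 80.2 to 92.5 CPM. Irf8 overlapped, at 240 and 259 against 192 to 244 CPM. Clec9a stood at 3.83 and 1.85 CPM against 0.113 to 0.333 CPM and Xcr1 at 0.550 and 1.34 against 0.113 to 0.450 CPM, so the defining markers were low but not at 0. Cd36 and Slc25a20 are also genes of cDC1 here, at 127 and 102 CPM in that class. Of the 5 cDC2 genes 2 were higher in both (sums of 14.5 and 28.9 against 7.96 to 9.58 CPM), and of the 5 CD8 T cell genes 4 were (sums of 6.66 and 29.8 against 2.12 to 6.001 CPM). The endothelial sum was 14.0 and 11.1 CPM against 7.29 to 8.66 CPM, of which Pecam1 gave most, while Kdr and Cdh5 reached at most 1.498 and 1.20 CPM in any library. Of the 6 monocyte genes 4 were higher in both and 1 lower (sums of 274 and 323 against 251 to 297 CPM), among them Plac8 at 15.2 and 76.3 against 2.11 to 6.77 CPM. Of the macrophage genes, 4 of 7 were lower in both libraries. The part of any of these in the members' differences was not tested.

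The promoters of Cd36 and Acadm are shown because these genes moved in opposite directions in the same macrophages while both hold a nuclear receptor half-site, AGGTCA on either strand, the element from which PPAR response elements are built. The windows are the 250 bases before the first transcribed base on the minus strand, taken from RefSeq on GRCm38.p6: chr5:17835897-17836146 for Cd36 and chr3:153944644-153944893 for Acadm. Capitals mark the half-site, read here as TGACCT on the gene's strand.
Cd36: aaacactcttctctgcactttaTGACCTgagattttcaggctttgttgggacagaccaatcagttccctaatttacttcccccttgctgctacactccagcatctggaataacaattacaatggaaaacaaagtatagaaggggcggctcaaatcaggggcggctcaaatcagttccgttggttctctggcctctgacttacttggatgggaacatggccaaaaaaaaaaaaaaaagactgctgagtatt
Acadm: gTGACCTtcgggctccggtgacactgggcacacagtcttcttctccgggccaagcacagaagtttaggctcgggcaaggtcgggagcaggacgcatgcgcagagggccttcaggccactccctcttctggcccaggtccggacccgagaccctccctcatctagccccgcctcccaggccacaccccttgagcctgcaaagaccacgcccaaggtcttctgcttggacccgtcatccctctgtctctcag

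The half-site was present in 6 of the 27 members with a window (Acadm, Acadvl, Cd36, Cpt1a, Echs1 and Pparg), or 22.2%, and in 14.0% of all 32851 promoter windows in the table and 11.3% of the windows of genes tested in macrophages. Of those 6 genes Cd36 was called higher and Acadm and Cpt1a lower in fully KO macrophages. The full response element, read as 2 such half-sites in the same direction with a single base between, on either strand, was in 0 of 27 members and in 0.0335% of all windows. The GC box GGGCGG was in 77.8% of members and 53.6% of windows of genes tested in macrophages, and the CCAAT box in 51.9% and 35.0%. Crat, Fabp4, Decr1 and Acaa2 have no window in the table used here. A match in such a window is a description of its letters.

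Taken separately, host and marrow genotype called no member in macrophages. The fits used 3 matched pairs of libraries for each factor. The intact pair is common to both and changes host and marrow together, so only the pairs of chimeras isolate a factor. For host genotype edgeR called 0 of 14805 genes (0%) at an adjusted p under 0.05, with 664 genes and 1 member at an unadjusted p under 0.05, and DESeq2 called 139 genes with Acsl1 as the 1 member. For marrow genotype edgeR called 0 genes (0%), with 653 genes and 2 members at an unadjusted p under 0.05, and DESeq2 called 47 genes and 0 members. In simulated macrophage data of the same depth, edgeR recovered 53% of genes changed by 1 on the log2 scale with host genotype and 92% of those changed by 2. Each simulated gene had the spread typical of its level, and marrow and transplantation changed no gene. These shares need not hold in the real data.

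Described by sign alone, 3 members were higher in macrophages with a KO host in all 3 pairs (13.8% of all genes were) and 7 of 30 were lower (14.1%). With KO marrow 5 were higher (15.5% of all genes) and 12 of 30, or 40% of members, were lower (15.9%). The 12 were Fabp4, Acsl3, Cpt2, Crat, Acads, Echs1, Hadh, Hadha, Eci1, Decr1, Etfa and Acox3, so they spread over binding, activation and the spiral. The sizes were small: with 10 CPM added to each level, the smallest of the 3 log2 ratios was -0.09 for Acsl3, -0.08 for Acads, -0.08 for Hadh and -0.05 for Echs1.

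Acsl1 ranked first among members of one sign for host genotype, with ratios of 1.08 between intact mice, 0.82 with KO marrow and 0.27 with WT marrow, and for marrow genotype it gave 0.77 with KO hosts and 0.22 with WT hosts. The fitted host effect was 0.73 (SE 0.16, adjusted p = 0.991, edgeR). Cd36 gave marrow ratios of 1.36, 1.004 and 0.22 and a fitted marrow effect of 1.21 (SE 0.35, adjusted p = 0.822). The interaction of host and marrow itself, fitted with 1 residual degree of freedom, gave 1.24 for Cd36 (adjusted p = 1) and 0.65 for Acsl1 (adjusted p = 0.963), and called 0 of 15741 genes, with 0 members called, so a larger difference when both are KO was not shown.

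The other members named for host genotype had small ratios in macrophages. Hadh, which oxidises the hydroxyacyl intermediate, was at 30.96 CPM for intact KO against 35.7 in intact WT, 37.5 in the KO-to-KO chimera and 46.6 in the KO-to-WT chimera, and 43.5 in the WT-to-KO chimera and 49.9 in the WT-to-WT chimera. In each pair the KO host was lower, by ratios of -0.16, -0.25 and -0.16, with a fitted effect of -0.20 (SE 0.10). Eci1, an isomerase for unsaturated chains, stood at 19.98 and 22.7, 27.7 and 29.9, and 28.0 and 30.2 CPM in the same order of pairs. Etfa, the α subunit of the electron carrier, stood at 66.1 and 69.0, 58.7 and 66.8, and 64.5 and 68.2 CPM. Acaa1a was higher with a KO host, at 77.0 and 69.8, 102 and 90.8, and 93.2 and 92.1 CPM. Both intact libraries lay below all 4 chimeras for Hadh, Eci1 and Acaa1a. Acaa1a has a close genomic copy, Acaa1b, so its counts are less certain than those of single-copy genes.

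For marrow genotype the pairs are the intact mice, whose host genotype differs as well, then KO with WT marrow within KO hosts and within WT hosts. Acads stood at 21.1 and 23.9, 23.5 and 33.1, and 30.7 and 32.9 CPM, lower with KO marrow in each. Echs1, the short-chain hydratase, stood at 38.3 and 47.0, 47.8 and 54.3, and 50.98 and 53.3 CPM, likewise lower in each. Acsl3 stood at 13.3 and 16.2, 11.99 and 16.8, and 16.6 and 18.4 CPM. The difference was smallest in WT hosts for all 3 genes.

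Ppard and Pparg separated intact mice from chimeras, and here transplantation and software version cannot be told apart. Ppard, the PPAR found in most tissues, stood in macrophages at 119 CPM in intact KO, 63.4 in intact WT, against 22.7 to 24.4 CPM in the 4 chimeras. The same split appeared in monocytes (82.4 and 61.9 against 19.8 to 23.7 CPM), in mesenchymal-like cells (65.5 and 27.6 against 11.8 to 16.5 CPM) and in CD8 T cells (31.3 and 17.0 against 6.06 to 12.2 CPM). Pparg, the receptor of lipid-loaded macrophages and adipocytes, stood in macrophages at 5.72 and 3.80 against 1.45 to 2.45 CPM. In monocytes it stood at 38.8 and 34.4 in intact mice, 16.9 in the WT-to-KO chimera and 2.63 to 4.61 CPM in the other 3.

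**Figure D3:**
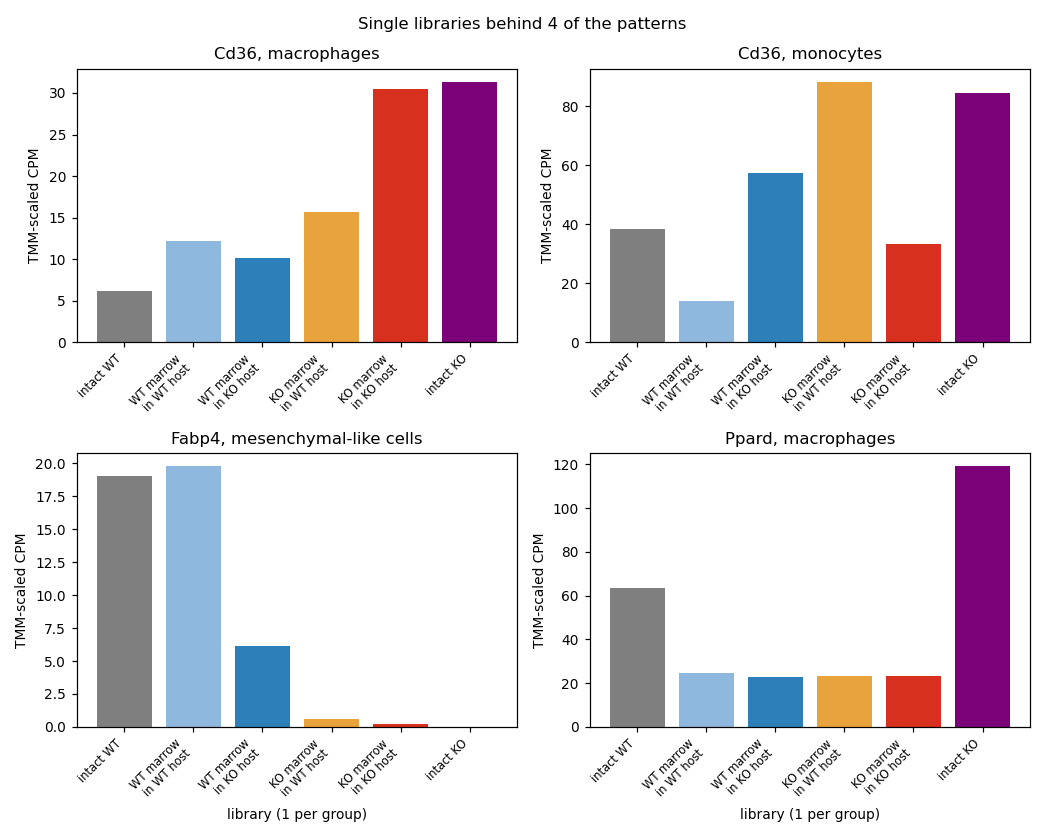
Level in each library (TMM-scaled CPM, bars from 0, 1 library per group and so no error bars) of Cd36 in macrophages and in monocytes, Fabp4 in mesenchymal-like cells and Ppard in macrophages. Cd36 is highest in the fully KO libraries in macrophages but in the KO-to-WT chimera (88.4 CPM) and intact KO (84.6 CPM) in monocytes, Fabp4 is at 6.13 to 19.8 CPM with WT marrow or in intact WT and at most 0.605 CPM elsewhere, and Ppard is high in intact mice.

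In CD8 T cells Acsl4 was the 1 member called, in the comparison of fully KO libraries with the other 4. It was at 83.3 CPM for intact KO, 53.9 in the KO-to-KO chimera, 24.1 in the KO-to-WT chimera, 36.4 in the WT-to-KO chimera, 24.4 in the WT-to-WT chimera and 52.7 in intact WT. The KO-to-KO chimera and intact WT were close to each other, and intact WT rests on 71 cells and 28 UMIs of the gene. The log2 difference was 0.85 (SE 0.21, adjusted p = 0.0362, edgeR), and 1 of 22 members was called beside 4.81% of all 8581 genes (1.84% higher and 2.97% lower). In the CD8 gate the summed cDC1 markers also stood at 352 and 699 CPM in the fully KO libraries against 37.0 to 149 CPM, nearly all of it Irf8 (342 and 686 CPM), with Clec9a at 0 in every library and Xcr1 at 0 to 1.95 CPM. The summed macrophage markers stood at 406 and 471 against 547 to 717 CPM, with 5 of 7 genes lower, and the part of these markers was not tested. The Acsl4 call was lost with DESeq2, with a stricter gate, in the transplanted libraries alone, and when any library but the WT-to-KO chimera was left out.

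Host genotype called 0 of 22 members in CD8 T cells beside 2% of all genes (1.42% higher and 0.583% lower), with 3 members and 1075 genes at an unadjusted p under 0.05, and marrow genotype 0 beside 0.035% (0.0233% higher and 0.0117% lower), with 0 members and 281 genes at an unadjusted p under 0.05. DESeq2 called 0 members in both. By sign, 6 of 22 members were higher with a KO host in all 3 pairs (18.2% of all genes) and 3 lower (17.9%), and 5 were higher with KO marrow (12.2%) and 2 lower (11.6%). In 5 members (Acsl4, Cpt1a, Decr1, Eci1 and Etfb) both fully KO libraries lay above the other 4, a pattern that 6.46% of all genes showed, and in 1 (Acox3) below, which 7.38% showed.

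Cpt1a, the entry enzyme that was lower in fully KO macrophages, stood in CD8 T cells at 16.2 CPM in intact KO, 14.8 in the KO-to-KO chimera, 11.4 in the KO-to-WT chimera, 14.6 in the WT-to-KO chimera, 5.54 in the WT-to-WT chimera and 1.88 in intact WT. The 2 libraries without any KO compartment were the lowest, on 5 and 1 UMIs, and the log2 difference for fully KO libraries was 0.85 (SE 0.42, adjusted p = 0.321). Hadh stood at 19.4, 30.2, 40.5, 14.6, 44.3 and 28.3 CPM in the same order. It was lower with a KO host in each pair, with a fitted host effect of -0.83 (SE 0.29, adjusted p = 0.210). Decr1, which handles double bonds, stood at 16.5, 17.8, 6.39, 15.8, 14.4 and 9.42 CPM, with a host effect of 0.93 (SE 0.40, adjusted p = 0.348).

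Eci1 stood in CD8 T cells at 38.1 CPM in intact KO, 50.9 in the KO-to-KO chimera and 24.5 to 36.2 in the other 4. Etfb, the β subunit of the electron carrier, stood at 130 and 147 CPM in the fully KO libraries and 86.7 to 118 in the other 4. For both, intact WT was the lowest library. Acads was highest in the WT-to-WT chimera at 54.3 CPM, with 21.3 to 32.8 CPM elsewhere, and Acadvl, Acaa2, Hadha and Etfdh kept one sign in 3 pairs with levels of 18.3 to 33.2, 43.3 to 67.4, 52.7 to 83.0 and 9.70 to 14.4 CPM. Marker sums of other cells in the CD8 gate differed between libraries too. The endothelial sum was 38.8 CPM in intact KO, with 62.3 in intact WT, against 6.29 to 13.9 in the chimeras, and its part in these values was not tested.

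In monocytes 0 of 28 members were called for host genotype (0.143% of all 8406 genes were, 0.0952% higher and 0.0476% lower), marrow genotype (0.0952% of genes, 0.0476% in each direction) or the fully KO libraries (0.892%, of which 0.773% higher and 0.119% lower). At an unadjusted p under 0.05 there were 2 members in each fit, beside 534, 484 and 872 genes, and DESeq2 called 0 members in each. By sign, 4 members were higher with a KO host in all 3 pairs (16% of all genes) and 2 lower (14%), and 5 were higher with KO marrow (16.1%) and 4 lower (13.9%).

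Cd36 in monocytes was at 84.6 CPM for intact KO, 33.5 in the KO-to-KO chimera, 88.4 in the KO-to-WT chimera, 57.4 in the WT-to-KO chimera, 13.8 in the WT-to-WT chimera and 38.5 in intact WT. The order of libraries differed from that in macrophages, and with KO marrow the KO host was the lower of its pair. Its UMIs came from 44, 42, 12, 9, 9 and 7 cells in that order. Acsl1 had its highest levels in the same libraries as in macrophages, with 41.0 and 30.1 CPM in the fully KO libraries, 25.3 in the KO-to-WT chimera, 29.2 in the WT-to-KO chimera and 13.8 and 13.7 in the 2 WT libraries. Its host effect was 0.79 (SE 0.32, adjusted p = 0.764) and it was the 1 member of 28 whose fully KO libraries both lay above the other 4, beside 6.77% of all genes.

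Slc25a20 in monocytes stood at 42.1, 29.0 and 30.7 CPM in the 3 libraries with KO leukocytes and at 14.6, 21.7 and 17.9 CPM in the 3 with WT leukocytes. These groups did not overlap, a pattern that was not counted over all genes. The fitted marrow effect was 0.91 and did not pass the test (SE 0.33, adjusted p = 0.833, edgeR). Cpt1a was lower with KO marrow in each pair, at 28.7 against 35.7, 16.9 against 29.2, and 23.5 against 27.0 CPM. Acadl, Crat, Acaa2, Acsl4 and Hadha also kept one sign in 3 pairs, over ranges of 78.4 to 106, 11.0 to 16.9, 32.8 to 51.4, 62.0 to 115 and 70.1 to 82.1 CPM. In the WT-to-WT chimera the monocytes held 64.9 CPM of mesenchymal-like markers against 8.39 to 21.0 CPM elsewhere. Hadh, Eci2, Decr1 and Acads were highest in that library (40.2, 60.6, 19.8 and 32.3 CPM), and the part of these markers was not tested.

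Mesenchymal-like cells, which carried Krt8, Krt18, Sparc, Col1a1 or Col3a1 and are CD45-low by RNA, gave 2 calls. Fabp4, a fatty acid chaperone of adipocytes, macrophages and capillary endothelium, was called for marrow genotype, and Acsl1 for the fully KO libraries. For marrow genotype 1 of 27 members was called beside 0.042% of all 11892 genes, and for the fully KO libraries 1 beside 3.88%. Host genotype called 0 members beside 0.151%, with 4 members and 688 genes at an unadjusted p under 0.05 and 0 members by DESeq2.

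Fabp4 stood in these cells at 0 CPM in intact KO, 0.229 in the KO-to-KO chimera, 0.605 in the KO-to-WT chimera, 6.13 in the WT-to-KO chimera, 19.8 in the WT-to-WT chimera and 19.0 in intact WT. The 3 libraries with KO leukocytes and the 3 with WT leukocytes did not overlap, and the fitted marrow effect was -5.10 (SE 0.40, adjusted p = 0.0114, edgeR), a size that depends on the prior count where UMIs are near 0. The UMIs behind it were 0, 1 and 6 against 57, 159 and 119, from 0, 1 and 3 cells against 9, 11 and 10 cells, and 1 cell of the WT-to-WT chimera held 99 of its 159. Without the 16 to 41 cells per library that held a UMI of an endothelial marker, the counts were 0, 1, 6, 5, 9 and 10, which is below the filter on low counts, so Fabp4 was not tested there. The call was lost without the WT-to-KO chimera and in the transplanted libraries alone. The endothelial sum in this class was 14.2, 5.97 and 3.44 CPM in the libraries with KO leukocytes and 20.4, 10.5 and 51.1 CPM in those with WT leukocytes. Of its genes, Cdh5 stood at 0, 0 and 0.197 CPM against 7.18, 2.65 and 15.8 CPM. The adipocyte markers Adipoq and Plin1 were at 0 in all 6 libraries.

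Acsl1 in mesenchymal-like cells was at 24.4 CPM for intact KO, 28.0 in the KO-to-KO chimera, 15.4 in the KO-to-WT chimera, 11.9 in the WT-to-KO chimera, 14.3 in the WT-to-WT chimera and 5.59 in intact WT. As in macrophages and monocytes, the fully KO libraries lay above the other 4. The summed macrophage markers in this gate went the other way, at 307 and 302 CPM against 375 to 491 CPM, with 7 of 7 genes lower. The summed monocyte markers were higher, at 150 and 156 CPM against 68.5 to 111 CPM, and of the class's own 5 markers Krt18 lay above and Col1a1, Col3a1 and Sparc below all other libraries. The part of these markers was not tested. The log2 difference was 1.38 (SE 0.24, adjusted p = 0.0167, edgeR). Among 16 alternative analyses the call was lost in 1, without intact KO. It was kept in the transplanted libraries alone, which make the same comparison. In 3 members the fully KO libraries were above all others (Acsl1, Acsl3 and Acsl4, beside 8.55% of all genes) and in 6 below (10.7%).

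Many members had a lower level with a KO host in these cells, none past the test. The make-up of the class moved with host genotype as well. In the intact, KO marrow and WT marrow pairs, before TMM scaling, Krt18 stood at 528, 482 and 365 CPM with a KO host against 168, 192 and 249 CPM with a WT host, and Krt8 was higher with a KO host in each pair too. Col1a1 stood at 77.1, 69.9 and 116 against 308, 279 and 281 CPM and Sparc at 619, 756 and 874 against 1539, 1201 and 1129.9 CPM, and their part in the members' levels was not tested. Of 27 members, 12 were lower in all 3 host pairs, or 44.4%, against 15.2% of all genes, and 2 were higher against 13.3%. The 12 included Acadm, Acads, Hadh, Hadha, Hadhb, Acaa2, Eci2 and Decr1, mitochondrial enzymes. The median host effect was -0.16 over the members and -0.0024 over all genes. With KO marrow 4 were lower (15% of all genes) and 2 higher (12.7%).

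Hadh stood in mesenchymal-like cells at 48.5 CPM for intact KO against 66.9 in intact WT, 70.8 and 96.3 with KO marrow, and 84.1 and 98.8 with WT marrow, each pair given with the KO host first. Its fitted host effect was -0.33 (SE 0.12, adjusted p = 0.737, edgeR). Eci2 stood at 63.8 and 72.2, 83.4 and 94.2, and 80.7 and 114 CPM in the same pairs. Acaa2, a mitochondrial thiolase, stood at 30.4 and 37.9, 43.1 and 58.4, and 45.2 and 51.3 CPM. The KO host was the lower library in every one of these pairs. Acadm gave 66.1 and 77.6, 84.8 and 110, and 92.1 and 99.8 CPM, and Decr1 28.4 and 38.0, 35.5 and 40.6, and 38.9 and 43.5 CPM. Acsl5 was the reverse, at 27.5 and 22.4, 37.6 and 21.7, and 29.8 and 25.8 CPM. Etfdh, the last carrier before the respiratory chain, had higher levels with KO marrow, at 17.6 against 16.5, 17.6 against 16.7, and 23.7 against 17.8 CPM. Acads had lower ones, at 26.7 against 27.5, 32.1 against 35.0, and 38.4 against 40.1 CPM.

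Macrophages and CD8 T cells of the same libraries differed in most of the pathway, as they did in most genes tested. Of 30 members tested, 20 were called, 17 higher in macrophages and 3 lower, where 62.2% of all 12576 genes were called, 35.6% higher and 26.5% lower. The median log2 difference was 0.51 over the members and 0.11 over all genes. Uptake, activation and the carnitine enzymes Cpt1a and Crat were higher in macrophages, while the long-chain dehydrogenase Acadl, the thiolase Acaa2 and Hadhb were higher in CD8 T cells. Without TMM scaling 15 were higher and 5 lower.

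The uptake and binding genes showed the largest differences. Cd36 was at 6.64 to 33.3 CPM in macrophages and 0 to 3.14 CPM in CD8 T cells (log2 difference 4.39, SE 0.54, adjusted p = 6.6e-05, edgeR), and Fabp4 at 2.14 to 5.91 and 0 to 0.678 CPM (3.83, SE 0.50, adjusted p = 2.97e-05). For scale, the C1q genes, which CD8 T cells lack and which the gate also limits, stood in them at 2.75% to 3.95% of the macrophage level. Pparg differed by 1.98 (SE 0.71, adjusted p = 0.0303) and Ppard by 1.69 (SE 0.17), with macrophages higher in 5 and 6 of 6 libraries.

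Among the synthetases, Acsl1 was at 21.7 to 59.5 CPM in macrophages and 0 to 5.81 CPM in CD8 T cells (3.23, SE 0.23, adjusted p = 1.2e-07). Acsl3 differed by 2.44, Acsl4 by 1.03 and Acsl5 by 0.31, so all 4 were higher in macrophages in 6 of 6 libraries, although the ranges of Acsl4 and Acsl5 overlapped between classes. The Acsl5 call was lost in 8 of 15 alternative analyses, those of Acadvl and Pparg in 6 each and that of Hadh in 1. In the carnitine shuttle Crat differed by 2.54 (SE 0.20) and Cpt1a by 1.41 (SE 0.28), whereas Cpt2 (0.56) and Slc25a20 (-0.19) did not pass.

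The acyl-CoA dehydrogenases differed among themselves. Acadl was at 77.3 to 172 CPM in CD8 T cells and 62.2 to 76.0 CPM in macrophages, without overlap, and lower in macrophages in 6 of 6 libraries (log2 difference -0.80, SE 0.12, adjusted p = 0.000101, edgeR). Acadm, for medium chains, was at 45.2 to 73.5 CPM in macrophages and 16.8 to 27.3 CPM in CD8 T cells (1.37, SE 0.13). Acadvl differed by 0.34 and Acads by 0.0074, the latter without a call. Further down, Echs1 (0.98), Hadh (0.63), Hadha (0.46) and the peroxisomal Acox3 (1.90) and Acaa1a (0.99) were higher in macrophages. Acaa2 (-0.49) was lower, and Eci1, Eci2, Decr1 and the 3 electron transfer genes Etfa, Etfb and Etfdh did not pass.

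Hadha and Hadhb encode the α and β subunits of the mitochondrial trifunctional protein, which assemble in equal numbers, and their genes lie head to head with 272 bases between their first transcribed bases. Hadha was higher in macrophages (81.8 to 107 against 47.0 to 83.4 CPM, log2 difference 0.46, SE 0.12, adjusted p = 0.00414) and Hadhb lower (33.3 to 47.9 against 42.0 to 66.6 CPM, -0.50, SE 0.10, adjusted p = 0.00113), each in 6 of 6 libraries. The promoter window of Hadhb lies inside this gap and is shown for that reason. It is chr5:30155003-30155252 on the plus strand (RefSeq, GRCm38.p6), with its GC boxes (GGGCGG) in capitals.
Hadhb: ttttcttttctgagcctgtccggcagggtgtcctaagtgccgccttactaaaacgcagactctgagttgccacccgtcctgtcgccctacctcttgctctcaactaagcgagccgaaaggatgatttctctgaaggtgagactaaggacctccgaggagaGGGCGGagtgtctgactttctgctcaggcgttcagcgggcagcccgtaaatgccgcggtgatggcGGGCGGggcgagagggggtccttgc

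**Figure D4:**
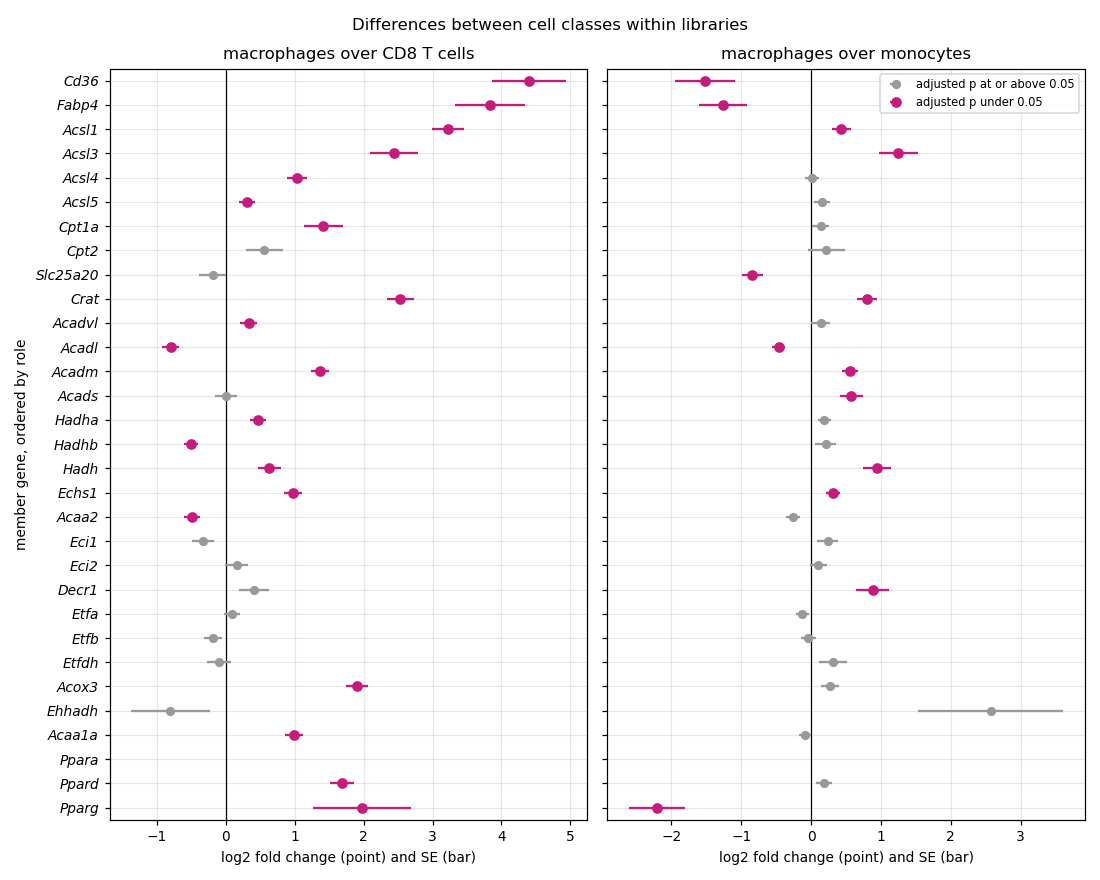
Log2 fold change of macrophages over CD8 T cells and over monocytes within the same 6 libraries for each member; points are edgeR estimates with the library as a block, bars are 1 SE, and coloured points have an adjusted p under 0.05. Over CD8 T cells 17 members are higher and 3 lower, over monocytes 8 are higher and 5 lower, and Cd36 is on opposite sides in the 2 panels (4.39 and -1.52).

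Against the monocyte class, gated on low C1q and on UMIs of Ly6c2, Plac8 or Hp, the direction turned for Cd36, Fabp4 and Pparg. The genes that most set this gate apart from the other classes were Chil3, Plac8, F10, Lpl, Nos2, Plcb1, Phf11d, Gpnmb, Ms4a8a and Adgre4. Only Plac8 of these is among its markers, and the make-up of the gate was not tested further. Of 30 members 13 were called, 8 higher in macrophages and 5 lower, where 28.6% of all 12366 genes were called, 15.1% higher and 13.5% lower. Lower in macrophages were Pparg (-2.21, SE 0.40, adjusted p = 0.00122, edgeR), Cd36 (-1.52, SE 0.43, adjusted p = 0.0472), Fabp4 (-1.26, SE 0.34), Slc25a20 (-0.84, SE 0.15) and Acadl (-0.47, SE 0.09). Cd36 was lower in macrophages in 6 of 6 libraries, although its ranges overlapped (6.30 to 31.7 and 13.6 to 86.1 CPM), and its call was lost in 7 of 15 alternative analyses, that of Fabp4 in 3 and that of Pparg in 1. Higher in macrophages were Acsl3 (1.25), Hadh (0.94), Decr1 (0.88), Crat (0.80), Acads (0.58), Acadm (0.55), Acsl1 (0.43) and Echs1 (0.32), of which Echs1 lost its call in 9 of the 15 alternatives, Acsl1 in 6, Acads in 3 and Decr1 in 1. Crat did so without overlap, at 22.6 to 31.3 against 10.7 to 16.8 CPM. In the transplanted libraries alone 6 members were called, and without intact KO 8.

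Over all 13 classes, with UMIs pooled over the 6 libraries and no TMM scaling, Cd36 was highest in cDC1, the cross-presenting dendritic cells, at 127 CPM (exact Poisson 95% interval 116 to 140, counting error only). It followed in monocytes at 50.99 CPM (46.5 to 55.8), macrophages at 16.4 (16.0 to 16.8), B cells at 12.04 (8.93 to 15.9) and neutrophils at 9.61 (6.33 to 14.0). In each of the 6 libraries cDC1 held at least 89.3 CPM, above the highest macrophage library (32.1 CPM), while the intervals of B cells and neutrophils overlapped. In regulatory T cells no Cd36 UMI was seen, which allows up to 3.12 CPM. Fabp4 was highest in mature dendritic cells at 50.3 CPM (41.9 to 60.0), with a lowest library of 19.3 and a highest of 119 CPM, above the 2.06 to 5.56 CPM of macrophages in every library.

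Slc25a20 was highest in cDC1 (102 CPM), followed by neutrophils (58.7), cDC2 (50.99) and mature dendritic cells (45.1). Acadl was also highest in cDC1 at 237 CPM, with CD8 T cells at 151 and macrophages at 66.3 CPM. Cpt1a was highest in macrophages (30.2 CPM) and cDC2 (28.7), and Crat in macrophages (27.3). Etfb was highest in NK cells at 210 CPM, and Hadh and Acadvl in mesenchymal-like cells (82.0 and 65.9 CPM). For the PPAR genes the libraries of 1 class differ too much for a pooled order. Ppard ran from 43.7 to 164 CPM over the libraries of neutrophils and from 21.4 to 122 CPM over those of macrophages, and Pparg from 2.54 to 39.6 CPM in monocytes and from 0 to 48.4 CPM in regulatory T cells. Classes other than the 4 tested hold as few as 4 cells in a library, so these levels carry no genotype comparison.

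**Figure D5:**
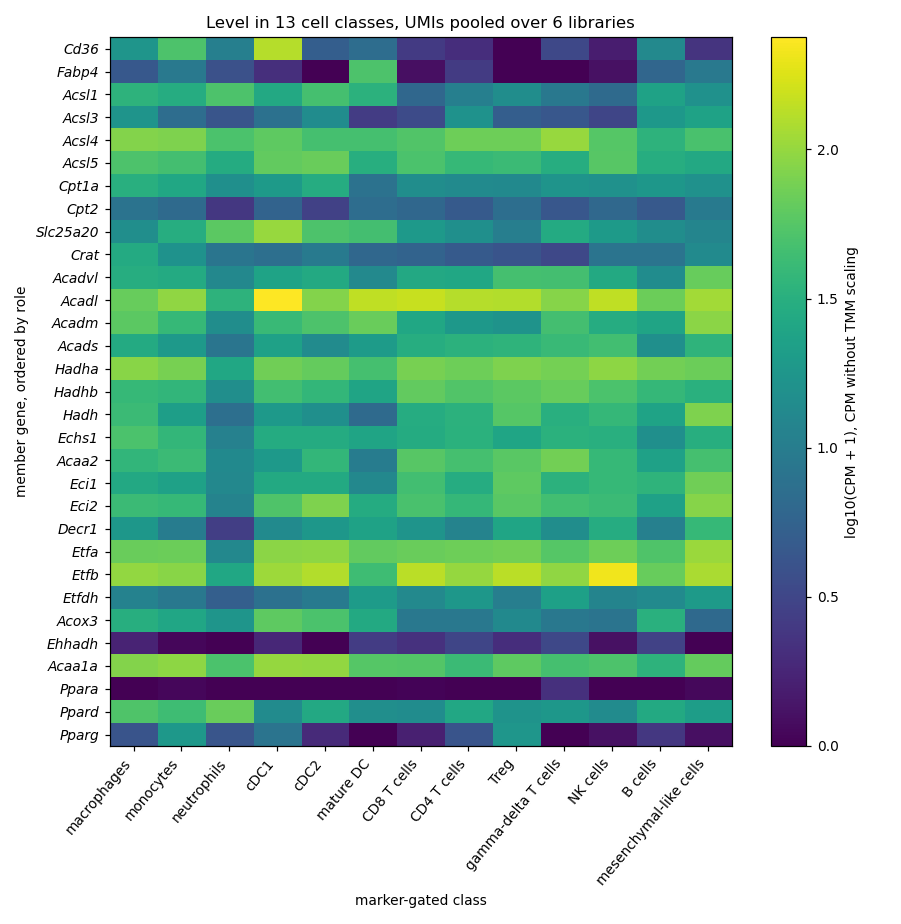
Level of each member (vertical axis, ordered by role) in the 13 gated classes (horizontal axis), as log10 of CPM plus 1, UMIs pooled over the 6 libraries without TMM scaling; the colour scale runs from 0 to the highest value. Cd36 and Slc25a20 are brightest in cDC1 (127 and 102 CPM), Fabp4 in mature dendritic cells (50.3 CPM), and Ppara and Ehhadh are dark throughout.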

How the data were processed

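Each deposited matrix gives raw UMI counts by gene and cell barcode. The authors produced them with Cell Ranger, version 7.0.1 for intact and 6.1.1 for transplanted libraries per the file headers, on mm10 per the submitters' processing notes, which name Seurat too. The sources used here do not give the intron setting. Groups came from the sample labels.

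Kept barcodes had 500 or more UMIs, 200 or more genes and 15% or less mitochondrial UMIs. Scrublet's automatic threshold (scanpy 1.11.5) called 0 to 4 doublets per library, so the top 6% by score were dropped. Classes were gated on marker UMIs, with macrophages defined by C1qa, C1qb and C1qc. Counts were summed per class and library, and the fits were made with edgeR 4.0.16 (glmQLFTest with robust estimation, TMM and filterByExpr). The terms were transplantation, host and marrow genotype (2 residual degrees of freedom), or transplantation and both KO (3), or, between classes, class with the library as a block. P-values were adjusted by Benjamini-Hochberg over all genes tested, with a threshold of 0.05. SE is the absolute log2 change divided by the square root of F. Pair ratios had 10 CPM added. The fits were tested on simulated data. Alternatives included DESeq2 1.42.0, no TMM, no filter, stricter cells and gates, and leaving out each library.

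Named with values are members called in a fit (up to 10 per fit and direction) and, per class and factor, up to 6 members with a mean of at least 10 CPM and one sign in all 3 pairs, ranked by the smallest ratio. Of the further pathway genes, up to 5 called per fit and direction are named. The members, the gene lists and the comparison of fully KO libraries were chosen with earlier results of these data known.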

Additional observations from a re-analysis of the deposited data

Results flagged for a closer look

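The difference between fully KO libraries and the other 4 itself differed between macrophages and CD8 T cells for 2 members. For Cpt1a the macrophage difference minus the CD8 difference was -1.27 on the log2 scale (SE 0.37, adjusted p = 0.0388, edgeR's quasi-likelihood test with an interaction term and Benjamini-Hochberg adjustment). In macrophages Cpt1a stood at 25.8 and 24.4 CPM in the fully KO libraries against 29.6 to 32.5 CPM, and in CD8 T cells at 16.2 and 14.8 CPM against 1.88 to 14.6 CPM, where the lowest value is 1 UMI of intact WT. For Eci1 the same difference was -0.79 (SE 0.24, adjusted p = 0.0476), with 19.98 and 27.7 against 22.7 to 30.2 CPM in macrophages and 38.1 and 50.9 against 24.5 to 36.2 CPM in CD8 T cells. In that test 2 of the 30 members tested were called beside 823 of 12576 genes, a similar share.

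In monocytes the host difference of Cd36 with KO marrow minus that with WT marrow was -3.42 on the log2 scale (adjusted p = 0.00953, edgeR with 1 residual degree of freedom, 8 of 9290 genes called). With KO marrow Cd36 stood at 33.5 CPM in the KO host and 88.4 in the WT host, and with WT marrow at 57.4 and 13.8 CPM. The 3 transplanted libraries other than the KO-to-KO chimera took their Cd36 UMIs from 9 to 12 monocytes each. Markers of other cells differed between these monocyte sums. The pDC sum was 24.4 CPM in intact KO, 114 in the KO-to-KO and 137 in the WT-to-KO chimera against 0 to 2.62 CPM in the 3 libraries with a WT host, and the CD8 T cell sum was 97.7 CPM in the KO-to-KO chimera against 1.45 to 12.2 CPM elsewhere, and their part was not tested.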

How the results depend on the processing

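For genotype, no test could be paired by replicate, because each group is 1 library and the labels give no replicate numbers shared between groups. The matched pairs above match libraries by their genotype labels. The comparisons between classes kept the library as a block. Leaving out 1 library at a time gave 3 to 7 members called for the fully KO libraries in macrophages (8 with all libraries), 0 to 1 in CD8 T cells (1) and 0 to 3 in the other classes (1). For host genotype it gave 0 in macrophages, 0 to 1 in CD8 T cells and 0 to 1 in the other classes (0 in each with all libraries), and for marrow genotype 0, 0 and 1 to 2 (0, 0 and 1). Between macrophages and monocytes it gave 8 to 12 (13), and between macrophages and CD8 T cells 17 to 22 (20).

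DESeq2 called 1 member for host genotype in macrophages, 0 for the fully KO libraries in CD8 T cells and 2 in the other classes. For CD8 T cells, a stricter gate and the transplanted libraries alone gave 0 for the fully KO libraries, and for host genotype 1 was called without the marrow term (Acsl4) and 1 with the interaction added (Hadh). In the other classes no filter on low counts gave 2 for the fully KO libraries, and for marrow genotype the transplanted libraries alone, no host term and leaving out cells with endothelial UMIs (chosen after seeing the data, with Fabp4 then below the filter and not tested) each gave 0. The transplanted libraries alone gave 6 between macrophages and monocytes. For the single members called with all libraries, most of them between classes, 578 alternative results kept direction and call. Another 85 kept direction and lost the call, and 0 reversed. Members not called are outside this count. Cd36, Acsl1 and Acsl5 in fully KO macrophages kept their calls in 15 of 15 alternatives, with log2 differences of 1.27 to 2.34, 1.11 to 1.40 and 0.43 to 0.61. Among those alternatives, the transplanted libraries alone and leaving out either intact library make the same comparison. The transplantation term absorbs a lone intact library.

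With 1 library per group and 2 or 3 residual degrees of freedom, edgeR recovered 45% of simulated CD8 T cell genes changed by 1 on the log2 scale with host genotype, so smaller differences were often not detectable. Members at 1 to 5 UMIs in the smaller CD8 T cell libraries are limited by counting.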

Other observations

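Beside the 31 members, 84 further genes of lipid handling were followed in 7 lists. In macrophages of the fully KO libraries 6 of 78 tested were higher and 8 lower by edgeR's quasi-likelihood test, where 9.2% of all genes were higher and 7.78% lower, with a median log2 difference of -0.04 over the 78 and -0.01 over all genes. The 2 acyltransferases that make triglycerides were both higher: Dgat1 stood at 76.9 and 39.8 CPM in the fully KO libraries against 16.5 to 26.1 CPM (log2 difference 1.43, SE 0.30, adjusted p = 0.0309) and Dgat2 at 6.48 and 5.53 against 2.77 to 4.01 CPM (0.79, SE 0.19, adjusted p = 0.0379). Klf10 differed by 0.63. Cpt1b, the muscle form of CPT1, was called with 1.53 but lay at 2.35 CPM in intact KO, 0.741 in intact WT and at most 0.0377 in the 4 chimeras.

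Of the 13 further peroxisomal genes 3 were lower in fully KO macrophages, beside the 7.78% of all genes: Abcd2, an importer of very long-chain acyl-CoA (7.62 and 6.19 against 12.3 to 15.1 CPM, log2 difference -1.04, SE 0.10, adjusted p = 0.00343), Hsd17b4 and Crot. The fatty acid transporter Slc27a1 stood at 23.8 and 36.9 against 30.2 to 62.8 CPM, with overlap (-0.55, adjusted p = 0.0194), and Fabp3 differed by -1.33 and Me1, which makes NADPH, by -1.08. Rxra, the partner receptor of the PPARs, was the 1 of 10 tested regulators called, lower at 17.7 and 18.9 against 22.6 to 28.7 CPM (-0.48, adjusted p = 0.0157).

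For host and marrow genotype taken separately, 0 of the 78 genes were called in macrophages and 0 of 46 in CD8 T cells by edgeR, with 3 and 2 genes of the 78 and 6 and 1 of the 46 at an unadjusted p under 0.05. In CD8 T cells the desaturase Scd2 was the 1 gene of 46 called for the fully KO libraries (28.7 and 36.3 against 11.3 to 21.8 CPM, log2 difference 1.05, adjusted p = 0.0265). In monocytes the lipoprotein lipase Lpl was called for host genotype (1.62, adjusted p = 0.0213) and for marrow genotype in the other direction (-1.52, adjusted p = 0.0399), with 261 CPM in the WT-to-KO chimera, 30.7 in the KO-to-WT chimera and 77.5 to 114 in the other 4. Abcd2 was lower in fully KO monocytes too (-1.91, adjusted p = 0.0229). In mesenchymal-like cells 0 of 69 were called for host, marrow or fully KO libraries by edgeR, with 4, 3 and 12 at an unadjusted p under 0.05.

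Between classes, 11 of 12 tested genes of lipoprotein uptake and binding were higher in macrophages than in CD8 T cells, led by the scavenger receptor Msr1, and 10 of 13 further peroxisomal genes were higher with 1 lower, where 35.6% of all genes were higher and 26.5% lower. Against monocytes, 6 of 10 tested lipid droplet genes were lower in macrophages, where 13.5% of all genes were, among them G0s2 (-4.76), Mgll (-3.33) and Dgat2 (-2.09). The lists were chosen with earlier results of these data known, and markers of dendritic cells, monocytes and CD8 T cells inside the macrophage gate moved with the fully KO libraries, whose part in these values was not tested.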
